A study of Mus musculus with 6 samples.

Results

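The genes described here are the 3 TGF-beta ligands Tgfb1, Tgfb2 and Tgfb3, their receptors Tgfbr1, Tgfbr2 and Tgfbr3, and the latent TGF-beta binding proteins Ltbp1, Ltbp2, Ltbp3 and Ltbp4. They were found by matching gene symbols to the Ensembl identifiers of the count files. All 10 were present among the 41388 genes listed and all 10 passed the filter on low values that left 12192 genes for testing. RNA had been sequenced from tumor-initiating cells (TICs), sorted as CD24+CD90+CD45- cells, and from CD45- cells outside the CD24+CD90+ gate (non-CD24+CD90+ tumor cells, called comparison cells below), with 3 samples of each. Both groups came from mammary tumors of female FVB/N-TgN(MMTVPyVT)634Mul/J mice at 12 weeks of age, in which a mouse mammary tumor virus promoter drives the polyoma middle T oncogene in mammary epithelium. The labels name no treatment for either group. Each sample pooled 4 cell sorts, so that a sample averages over animals, and a comparison cell may carry 1 of the 2 markers. The series text describes the comparison cells as negative for both markers, whereas the methods place every CD45- cell outside the double-positive gate in this group.

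TGF-beta ligands are secreted as dimers that stay folded inside their own propeptide. In this latent form they are tied to the extracellular matrix through latent TGF-beta binding proteins. Once released, a dimer binds the type II receptor TGFBR2, which recruits and phosphorylates the type I receptor TGFBR1, and TGFBR1 in turn phosphorylates SMAD2 and SMAD3. TGFBR3 (betaglycan) has no kinase and presents ligand, above all TGF-beta 2, to the type II receptor. In mammary epithelium TGF-beta is known to restrain proliferation, and in carcinomas it is known as an inducer of epithelial-to-mesenchymal transition and of matrix production by stromal cells.

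The type II receptor was higher in TICs. Tgfbr2 was about 2.08-fold higher in TICs and was the only member that edgeR's exactTest called at the threshold of 0.1 on the adjusted p. The ligands Tgfb2 and Tgfb3 lay lower in every TIC sample than in every sample of comparison cells, at 0.59 and 0.64 of the level there, but neither passed the test. The other 7 members overlapped between the groups. Thus 1 of 10 members was called, beside 1.55% of all 12192 genes tested. DESeq2 also called 1 of 10, beside 2.51% of all genes, and edgeR's quasi-likelihood test 0 of 10, beside 0.41%. An unadjusted p below 0.05 was reached by 2 of 10 members in exactTest, beside 7.85% of all genes. In 1 member all TIC samples lay above, beside 7.69% of all genes, and in 2 members all lay below, beside 7.55%. The log2 fold change was positive in 6 members and negative in 4, beside 49.7% positive over all genes, with a median of 0.15 against -0.01 over all genes tested.

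The sequences just upstream of the transcription start are shown for the receptor that was called and for the ligand with the lowest ratio between the groups. Both are RefSeq sequences of GRCm38.p6, given 5′ to 3′ on the strand of the gene, and each holds the 250 bases before the annotated start. The Tgfbr2 stretch is chr9:116175364-116175613 and the Tgfb2 stretch is chr1:186705990-186706239, both on the minus strand. Capitals mark matches, on either strand, to the TATA box (TATAAA), to the CCAAT box, to the GC box, which reads GGGCGG, or to the Smad-binding element, which reads CAGAC, and no match overlaps another in these stretches.
Tgfbr2: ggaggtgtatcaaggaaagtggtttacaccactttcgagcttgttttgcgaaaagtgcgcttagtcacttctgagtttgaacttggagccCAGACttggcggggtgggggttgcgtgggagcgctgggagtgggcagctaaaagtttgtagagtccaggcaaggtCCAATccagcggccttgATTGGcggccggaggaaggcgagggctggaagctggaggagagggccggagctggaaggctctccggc
Tgfb2: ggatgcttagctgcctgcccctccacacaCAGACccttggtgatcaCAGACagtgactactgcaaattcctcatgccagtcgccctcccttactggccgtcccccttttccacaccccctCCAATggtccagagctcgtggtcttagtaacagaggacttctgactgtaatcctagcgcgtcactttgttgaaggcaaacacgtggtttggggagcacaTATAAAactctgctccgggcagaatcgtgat
The Tgfbr2 stretch held 2 CCAAT matches and 1 CAGAC match. It held no TATAAA. The Tgfb2 stretch held 1 TATAAA, 1 CCAAT and 2 CAGAC matches. Of 32851 mouse stretches of the same length, 12.4% held TATAAA, 33.8% CCAAT, 32.7% GGGCGG and 42.2% CAGAC, so that each of these matches is common. A stretch was on hand for 8 of the 10 members, all but Tgfb3 and Tgfbr3. The Tgfb2 stretch was the only one among their 12 stretches with TATAAA. The start-proximal stretch of Tgfb1 held 5 GC boxes, and its GC content of 75.2% compares with 53.6% for Tgfb2, 58.4% for Tgfbr2 and a median of 52.4% over all stretches.

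The libraries and the cells behind them set the frame for these values. Total counts were 6781239 to 8450038 for comparison cells and 8114933 to 9100552 for TICs, and 3 counts correspond to 0.33 to 0.44 CPM (counts scaled to a common library size). Genes at 20 to 60 counts in the other samples of a group were without any count in 15.3% to 41.4% of cases, most often in TIC replicate 3. The common biological coefficient of variation was 0.82. Luminal epithelial markers such as Krt18 and Epcam were abundant in all samples, with a summed level of 4112 to 4869 CPM in TICs and 6219 to 6602 CPM in comparison cells. Of these 12 markers, 0 passed edgeR's exactTest, 2 had an unadjusted p below 0.05 and DESeq2 called 2. Markers of stromal cells were present in both groups, and their summed levels were higher in every TIC sample. The 7 fibroblast markers summed to 1309 to 1836 CPM in TICs and 513 to 706 CPM in the other group, with Col6a3 and Pi16 at the highest counts, and 4 of 7 rose. The 10 pericyte or smooth muscle markers summed to 935 to 1590 CPM against 488 to 623 CPM, Rgs5 and Pdgfrb being the highest, and 1 of 10, Rgs5, rose. The 10 endothelial markers, led by Esam and Emcn, summed to 223 to 761 CPM against 177 to 195 CPM. None of the 10 passed exactTest, 5 had an unadjusted p below 0.05, and DESeq2 and the quasi-likelihood test called 0. Of 9 leukocyte markers, led by Cd68 and Cd52, Adgre1 and Cd3e had no count in any sample, and the 9 summed to 5.94 to 38.1 CPM in TICs and 15.9 to 32.3 CPM in the other group. The 6 basal epithelial markers, led by Krt14 and Krt5, summed to 366 to 600 CPM in TICs and 460 to 1049 CPM in the other group, with 0 called by exactTest, the quasi-likelihood test or DESeq2 and 1 at an unadjusted p below 0.05. Of 5 adipocyte markers, Adipoq, Plin1 and Lep were at 0 in all samples. Cidec had 18 counts in TIC replicate 2 and none elsewhere, and was not tested. Fabp4, which endothelial cells are also known to express, rose by 2.75 on the log2 scale.

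**Figure D1:**
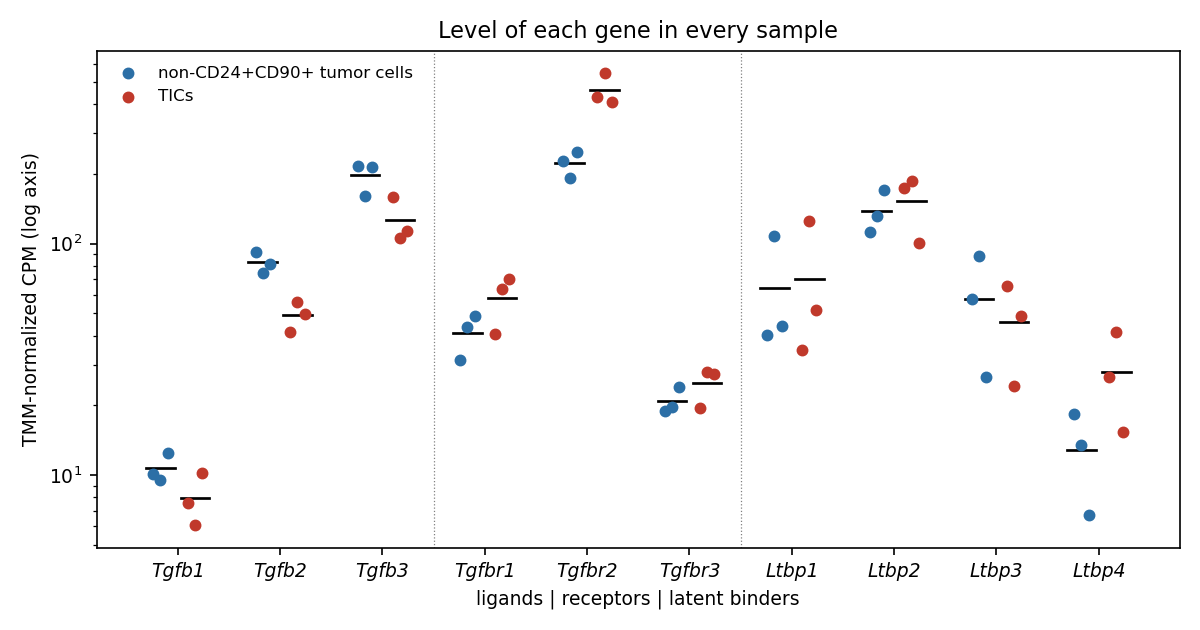
TMM-normalized CPM (log axis) of each of the 10 genes in the 3 samples of comparison cells (non-CD24+CD90+, blue) and the 3 samples of TICs (red), replicates 1 to 3 from left to right, with the group mean as a bar. The 3 TIC samples of Tgfbr2 sit between 411 and 545 CPM, above the 192 to 249 CPM of the other group, whereas Tgfb2 and Tgfb3 sit lower in TICs.

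Tgfbr2 (ENSMUSG00000032440, chr9:116084293-116175360 of GRCm38, minus strand) encodes the kinase that binds the active ligand first. It had 1557, 1689 and 1742 raw counts in replicates 1 to 3 of comparison cells and 3928, 4671 and 3115 in TICs. After normalization these were 227, 192 and 249 CPM in the first group and 432, 545 and 411 CPM in TICs. The lowest TIC sample was thus well above the highest sample of the comparison group. The means were 223 ± 29.0 CPM and 462 ± 71.9 CPM (SD, n = 3), which gives a log2 fold change of 1.05 with a standard error (SE) of 0.29, and the p of exactTest, adjusted over all genes tested, was 0.033. The 95% interval of the fold change ran from 1.41 to 3.06. Tgfbr2 ranked 99 of 12192 genes by p-value. Its tagwise coefficient of variation was 0.24 against a median of 0.62 over all genes. Other abundant genes had values as low, such as Krt18 and Epcam at 0.22. The call depended on the test and on single samples. DESeq2 gave an adjusted p of 0.00075 and edgeR's quasi-likelihood test 0.12. Without TIC replicate 1 or 3 the adjusted p of exactTest was 0.028 or 0.020, and without comparison cell replicate 1, 2 or 3 or TIC replicate 2 it was 0.19, 0.37, 0.13 or 0.24, while the log2 fold change stayed between 0.92 and 1.15. In sorted cell pools, more cells that express the gene and more RNA per cell cannot be told apart. The median log2 fold changes of the fibroblast, endothelial and pericyte markers were 1.39, 1.16 and 0.96, in the same direction as that of Tgfbr2, and their part in its change was not tested.

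Among all other genes tested, the profiles closest to that of Tgfbr2 across the 6 samples were those of Rnase4, Anxa5 and Postn. Closeness was the root mean square distance between log2(CPM + 1) values centred on each gene's mean, which was 0.10, 0.11 and 0.13. Rnase4 encodes a secreted ribonuclease, Anxa5 a calcium-dependent phospholipid-binding protein, and Postn the matrix protein periostin. Their log2 fold changes were 1.13, 0.98 and 1.15, with adjusted p = 0.082, 0.063 and 0.0091 from edgeR's exactTest. With 6 samples and 12192 genes, close profiles are to be found for many genes.

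The other receptors showed smaller differences. Tgfbr1 (ENSMUSG00000007613, chr4:47353222-47414931, plus strand), the type I kinase, had 31.4, 43.8 and 48.6 CPM in comparison cells and 40.7, 63.8 and 70.2 CPM in TICs. TIC replicates 2 and 3 were above all samples of the other group and TIC replicate 1 was within their range. The log2 fold change was 0.50 (SE 0.46, adjusted p = 0.997 from exactTest), with an interval of 0.76 to 2.63 for the fold change, so that neither no change nor a doubling lies outside it. Tgfbr3 (ENSMUSG00000029287, chr5:107106570-107289629, minus strand), the co-receptor, had 19.0, 19.7 and 23.9 CPM and, in TICs, 19.5, 28.0 and 27.2 CPM. The groups overlapped, and the log2 fold change was 0.25 with a standard error of 0.67.

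Within a sample, the receptors were compared as log2 ratios of normalized counts. The ratio of Tgfbr3 to Tgfbr2 was -3.58, -3.28 and -3.38 in comparison cells and -4.47, -4.28 and -3.92 in TICs. Every TIC sample was lower, and the means differed by -0.81 (exact permutation test, two-sided, p = 0.1, the smallest that 3 samples against 3 can give). The ratio of Tgfbr2 to Tgfbr1 was higher in TICs by 0.57, but the groups overlapped (exact permutation test, p = 0.2). The adjusted p over the 5 ratios tested was 0.33 for both. A ratio reports unequal change of its members, not which of them changed. In its own level Tgfbr3 overlapped between the groups, whereas Tgfbr2 did not.

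Of the ligands, Tgfb3 was the most abundant and Tgfb1 the least. Tgfb3 (ENSMUSG00000021253, chr12:86056745-86079041, minus strand), known from palate fusion and mammary involution, had 216, 161 and 215 CPM in comparison cells and 159, 106 and 114 CPM in TICs. The highest TIC sample, replicate 1, was only just below the lowest sample of the other group, replicate 2. The means were 197 ± 31.6 and 126 ± 28.6 CPM (SD, n = 3), a log2 fold change of -0.65 (SE 0.31, unadjusted p = 0.042, adjusted p = 0.59 from edgeR's exactTest). Tgfb2 (ENSMUSG00000039239, chr1:186622792-186705989, minus strand), the isoform that depends most on betaglycan for receptor binding, had 92.4, 74.8 and 82.0 CPM against 41.7, 56.0 and 49.5 CPM in TICs. Here the gap between the groups was wider, from 56.0 to 74.8 CPM. The means were 83.0 ± 8.85 and 49.0 ± 7.16 CPM, a log2 fold change of -0.76 (SE 0.39, unadjusted p = 0.052, adjusted p = 0.64). For both ligands the log2 fold change stayed negative with every sample left out in turn, between -0.86 and -0.64 for Tgfb2 and between -0.83 and -0.53 for Tgfb3. The 12 luminal epithelial markers had a median log2 fold change of -0.36. Of these, 5 lay lower in every TIC sample, beside 7.55% of all genes, and 0 passed exactTest. Their part in the differences of the ligands was not tested.

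Tgfb1 (ENSMUSG00000002603, chr7:25687002-25705077, plus strand), the ligand best known from fibrosis and immune control, was counted with only 52 to 87 reads per sample. It had 10.1, 9.53 and 12.4 CPM in comparison cells and 7.58, 6.06 and 10.2 CPM in TICs. TIC replicate 3 overlapped with the other group. The log2 fold change was -0.43 with a standard error of 1.12, so that a change from 0.16-fold to 3.42-fold lay within the 95% interval. The coefficient of variation over the 3 samples was 14.5% and 26.1% in the 2 groups, whereas the tagwise value that edgeR used for this gene was 0.95. Within samples, the ratios of Tgfb2 to Tgfb1 and of Tgfb3 to Tgfb1 differed by -0.32 and -0.21 on the log2 scale between the groups (exact permutation test, p = 0.4 and p = 0.7). The latter was 0.05 without TIC replicate 3, so that its direction rests on that sample.

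**Figure D2:**
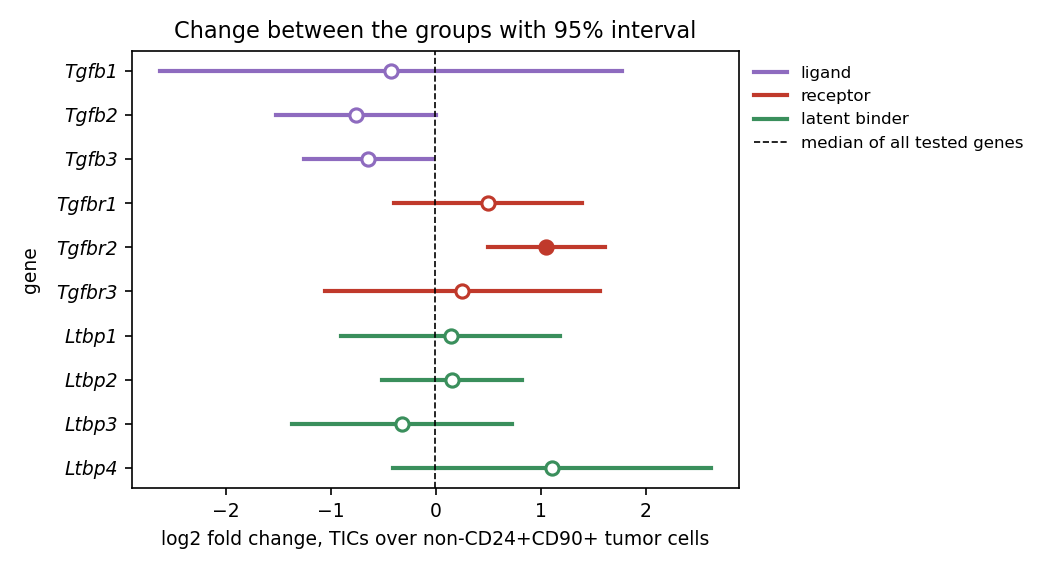
Log2 fold change of each of the 10 genes in TICs over comparison cells with its 95% interval, coloured by role; the filled circle passed an adjusted p of 0.1 and open circles did not. Tgfbr2 is at 1.05 with an interval of 0.49 to 1.61, and the intervals of Tgfb1 and Ltbp4 are the widest of the 10.

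The latent binding proteins varied between replicates as much as between groups. Ltbp1 (ENSMUSG00000001870, chr17:75005568-75392512, plus strand), which links latent TGF-beta to fibronectin and fibrillin in the matrix, had 40.1, 108 and 44.1 CPM in comparison cells and 34.8, 125 and 51.9 CPM in TICs. In both groups replicate 2 was more than 2-fold above the other samples. The log2 fold change was 0.14 with a standard error of 0.53, and it turned to -0.56 without TIC replicate 2 and to -0.09 and -0.07 without replicates 1 and 3 of the other group. Ltbp3 (ENSMUSG00000024940, chr19:5740904-5758532, plus strand), another carrier of the latent complex, had 57.4, 88.6 and 26.6 CPM against 65.5, 24.1 and 48.4 CPM in TICs. Its log2 fold change was -0.32 with a standard error of 0.53, and it turned to 0.13 without replicate 2 of comparison cells.

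Ltbp2 (ENSMUSG00000002020, chr12:84783212-84876532, minus strand), the member of the family that does not bind latent TGF-beta and that belongs to elastic fibres, was the most abundant of the 4. It had 112, 132 and 170 CPM in comparison cells and 174, 186 and 100 CPM in TICs. TIC replicates 1 and 2 were the highest of the 6 samples and TIC replicate 3 the lowest. The log2 fold change was 0.15 (SE 0.34), it was -0.0043 without TIC replicate 2, and the 95% interval of the fold change, 0.70 to 1.77, was the narrowest among the binding proteins. Ltbp4 (ENSMUSG00000040488, chr7:27305136-27337692, minus strand), which binds latent TGF-beta 1 weakly and acts in elastic fibre assembly, had 18.4, 13.5 and 6.72 CPM against 26.6, 41.4 and 15.3 CPM in TICs. Its fold change of 2.16 was larger than that of Tgfbr2, but TIC replicate 3 was below the highest sample of the other group. With a standard error of 0.77 on the log2 scale, the interval ran from 0.75 to 6.18 and the adjusted p was 0.92. The log2 ratio of the 4 binding proteins together to the 3 ligands was -0.11 ± 0.52 in comparison cells and 0.67 ± 0.44 in TICs (SD, n = 3), but the groups overlapped (exact permutation test, p = 0.2).

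Exons of a few members overlap other genes. Exons of Ltbp2 share 764 bases with the antisense gene D030025P21Rik, and those of Tgfb2 share 124 with Gm29491, which had no count. D030025P21Rik had 115 counts over all samples. The strand setting of the counting is not given in the sources used here, so that reads in such stretches cannot be told apart.

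To compare members with each other, CPM was divided by the summed length of all annotated exons in kilobases. In comparison cells the order of this length-normalized level was Tgfb3 (58.3 ± 9.35 CPM per kb), Tgfbr2 (27.2 ± 3.55), Ltbp2 (16.9 ± 3.59), Tgfb2 (14.3 ± 1.53), Ltbp3 (6.34 ± 3.42), Tgfbr1 (6.32 ± 1.36), Ltbp1 (5.99 ± 3.56), Tgfbr3 (3.19 ± 0.40), Tgfb1 (2.12 ± 0.31) and Ltbp4 (1.99 ± 0.91, SD, n = 3). Neighbours that overlapped between their samples were Ltbp2 and Tgfb2, the run from Ltbp3 to Ltbp1, and Tgfb1 and Ltbp4. In TICs the first 2 places were exchanged, with Tgfbr2 at 56.5 ± 8.78 and Tgfb3 at 37.2 ± 8.46 CPM per kb. Ltbp2 followed at 18.8 ± 5.67, then Tgfbr1 at 8.91 ± 2.38 and Tgfb2 at 8.47 ± 1.24. From Tgfbr1 down to Tgfbr3 at 3.8 ± 0.72 each neighbour in the order overlapped with the next, and Tgfb1 was last at 1.57 ± 0.41 CPM per kb. The lower places of the order depended on the length used. With the longest coding transcript of each gene, Tgfb1 in comparison cells was at 4.91 ± 0.71 CPM per kb, above Tgfbr3 at 3.43 ± 0.43. Ltbp1 was then at 9.60 ± 5.70 there, above Tgfbr1 at 7.17 ± 1.55.

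The members of each family were also given as shares of its summed length-normalized level. Tgfb3 made up 77.8 ± 1.53% of the ligand level in comparison cells and 78.2 ± 5.41% in TICs, and Tgfb1 2.85 ± 0.36% and 3.38 ± 1.03%. The summed ligand level was 81.8, 62.3 and 80.1 CPM per kb in the first group and 55.6, 42.1 and 44.1 in TICs, so that all TICs were lower. Tgfbr2 made up 74.1 ± 3.87% and 81.6 ± 4.10% of the receptor level, with overlap between the groups. The share of Tgfbr3 was 8.69 ± 0.47% and 5.5 ± 0.81% and was lower in every TIC sample. Its own level, 3.19 ± 0.40 and 3.8 ± 0.72 CPM per kb, was not lower in TICs and overlapped between the groups. The summed receptor level was 35.5, 33.1 and 41.5 CPM per kb and, in TICs, 61.9, 80.6 and 65.1. Ltbp2 held 55.3 ± 15.2% and 53.7 ± 5.11% of the level of the binding proteins. The annotated exons of Tgfb1 cover 5042 bases and its longest coding transcript 2175. With the latter as length, its share of the ligand level was 6.22% and 7.30%.

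**Figure D3:**
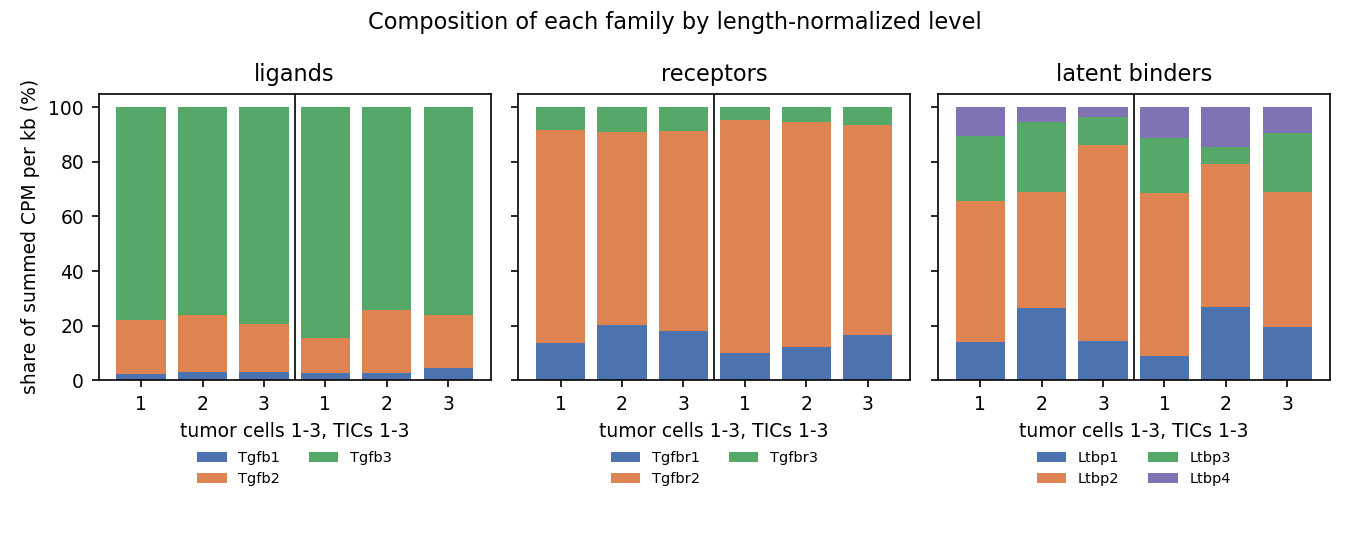
Share of each gene in the summed length-normalized level (CPM per kb, %) of its family, for comparison cells replicates 1 to 3 (left of the line) and TICs 1 to 3 (right). Tgfb3 holds 74.2% to 84.4% of the ligand level in every sample. The Tgfbr3 band is thinner in the 3 TIC samples, whereas the level of Tgfbr3 itself overlapped between the groups.

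The rest of the pathway was read from the same fit, in 4 lists of 68 genes in all, of which 66 were tested. In TICs 14 of these rose and 0 fell, which is 21.2% beside 1.55% of all genes, and their median log2 fold change was 0.80. The lists had been chosen with results of these data known, and Mmp2, Mmp14, Postn, Zeb1 and several collagens are genes the study itself picked out in these samples, so that these counts are no independent evidence of a direction.

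Among 17 genes of ligand processing and activation, 3 rose, 0 fell and 14 did not pass the test, with a median log2 fold change of 1.05. Fbn1, the fibrillin that anchors latent complexes in microfibrils, had 154, 185 and 177 CPM in comparison cells and 644, 717 and 458 CPM in TICs. Its log2 fold change was 1.82 (SE 0.29, adjusted p = 5.4e-06 from exactTest). The matrix metalloproteinases Mmp14 and Mmp2, which can release latent TGF-beta, rose by 1.25 and 1.33 on the log2 scale (standard errors 0.29 and 0.36, adjusted p = 0.0064 and 0.041). The quasi-likelihood test called 2 of the 3, with an adjusted p of 0.17 for Mmp2, which was called in 3 of the 6 fits that left out a sample. Emilin1, an elastic fibre glycoprotein that limits processing of the TGF-beta precursor, had a log2 fold change of 2.32 with an adjusted p of 0.28 and overlapped between the groups.

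Of 12 accessory receptors and ligand binders, 11 were tested, 4 rose and 0 fell, with a median log2 fold change of 1.41. Bgn, Dcn and Fmod encode small leucine-rich proteoglycans that bind TGF-beta, and Nrp1 encodes a co-receptor of VEGF and semaphorins that also binds TGF-beta 1. Bgn had 953, 743 and 954 CPM in comparison cells and 2535, 2030 and 2623 CPM in TICs, a log2 fold change of 1.44 (adjusted p = 0.00026). Nrp1 rose by 1.54, Dcn by 1.48 and Fmod by 2.88 (adjusted p = 0.00066, 0.0080 and 0.022). The quasi-likelihood test called 2 of the 4, with an adjusted p of 0.11 for Dcn and 0.15 for Fmod, which were called in 4 and 3 of the 6 fits that left out a sample. These proteoglycans are also abundant products of fibroblasts. Of the 7 fibroblast markers 4 rose, beside 1.55% of all genes called in either direction, and their part in these values was not tested.

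The Smads and their regulators stood at the other end, with 0 of 16 tested genes called by exactTest, the quasi-likelihood test or DESeq2, 2 at an unadjusted p below 0.05, and a median log2 fold change of 0.02. Smad3, the receptor-activated Smad downstream of TGFBR1, had 121, 155 and 177 CPM in comparison cells and 82.2, 79.9 and 83.1 CPM in TICs. All TIC samples were below the other group, with a log2 fold change of -0.88 (SE 0.32, adjusted p = 0.23 from exactTest). Zfyve9 (SARA), which brings Smads to the receptor, was at -1.34 and also lower in every TIC sample, with an adjusted p of 0.61. The inhibitory Smad7 was at 1.38 and the repressor Tgif1 at 1.25, with adjusted p = 0.89 and 0.90.

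Of 22 genes known as transcriptional targets of TGF-beta in various cells, 7 rose, 0 fell and 15 did not pass, with a median log2 fold change of 1.06. The 7 were Col1a2, Col1a1, Col3a1, Fn1, Postn, Lox and Zeb1. The first 5 encode collagen chains, fibronectin and periostin, Lox encodes the enzyme that crosslinks collagen, and Zeb1 is a repressor of epithelial genes. Col1a2 rose by 2.01 (SE 0.26, adjusted p = 2.4e-09) and Fn1 by 1.51 (SE 0.30, adjusted p = 0.00066). Lox rose by 1.23 (adjusted p = 0.067) and Zeb1 by 3.02 (adjusted p = 0.071), and each of these was called in only 2 of the 6 fits that left out a sample and not by the quasi-likelihood test, which called 5 of the 7. Ctgf and Cdkn1a, which are induced directly by TGF-beta in many cells, had log2 fold changes of 0.82 and 0.77 and did not pass the test. Snai2, a repressor of epithelial genes like Zeb1, was lower in every TIC sample, with a log2 fold change of -1.24 and an adjusted p of 0.54. These 3 were picked after their values were seen. Of the 7 fibroblast markers 4 rose as well, and their part in the values of this list was not tested.

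**Figure D4:**
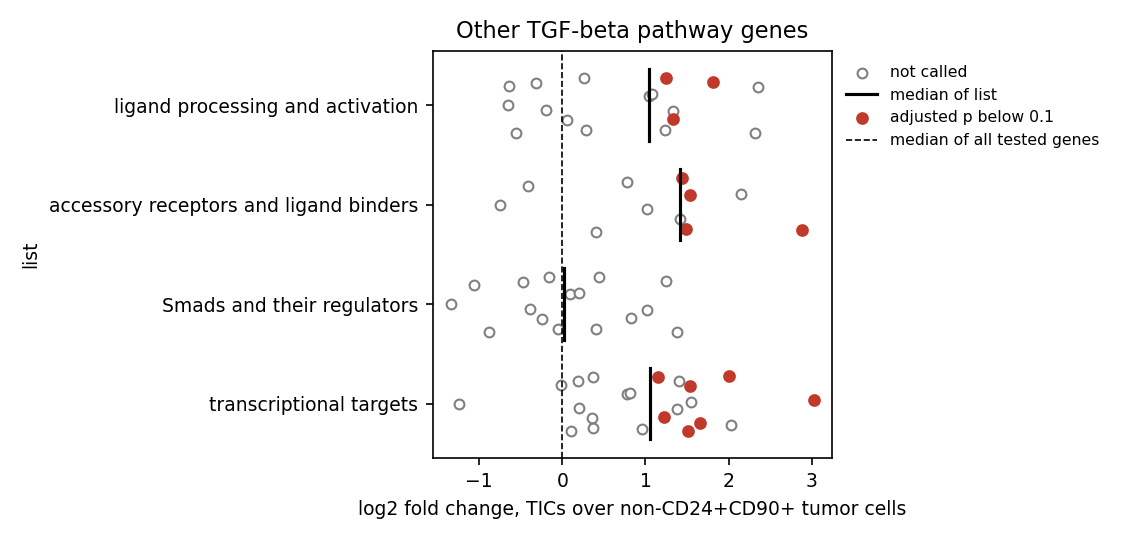
Log2 fold change in TICs over comparison cells of the 66 tested genes of the 4 lists, one circle per gene and list (vertical position within a list has no meaning), filled where the adjusted p was below 0.1. The medians of 3 lists lie between 1.05 and 1.41, whereas that of the Smads and their regulators is 0.02, near the median of all genes.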

How the data were processed

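RNA-seq libraries from 120 ng of RNA were analysed for 3 TIC samples and 3 samples of comparison cells. Per the labels and methods, reads went through Trimmomatic 0.32 and were placed on GRCm38 by STAR 2.4.0, SAMtools 1.1 served to drop those without a unique position, and HTSeq counted the rest. The authors deposited raw counts per Ensembl gene. Near-identical genes can therefore be undercounted. The annotation release is not given in the sources used here.

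Symbols, coordinates and exon lengths came from GENCODE M21 on GRCm38, and 40254 of 41388 genes had a symbol. The filter, set here, asked for more than 1 CPM in 3 or more libraries. Counts were scaled by TMM and compared with exactTest of edgeR 4.0.16 under R 4.3.3, the test named by the study, with Benjamini-Hochberg adjustment and a threshold of 0.1. Standard errors came from the negative binomial fit with tagwise dispersions, and intervals are 95% Wald intervals. Within-sample ratios had 0.5 added to each normalized count and were compared with two-sided exact permutation tests. Replicates were numbered in the order of accession. Same-group samples differed far beyond counting noise (chi-square per degree of freedom 46.5 to 114). P-values refer to the spread between these pools, and those of edgeR and DESeq2 use dispersions drawn toward those of other genes.

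The members and lists were chosen with earlier results of these data known. All members are named. From each pathway list the called genes are named, filled up to 4 by smallest p, and from each marker list the genes at 0 throughout and the 2 with the highest counts. Profile neighbours are the 3 closest genes to the called member. Alternatives were the quasi-likelihood test, DESeq2 1.42.0, RLE factors, library size alone, 2 other filters, a threshold of 0.05, a ratio pseudocount of 5 and each sample left out. The length of the longest coding transcript was added after the data were seen. The scripts were tested on simulated counts. Some genes that these rules would name are not reported here.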

Additional observations from a re-analysis of the deposited data

How the results depend on the processing

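Tgfbr2 was called by exactTest under RLE factors, library size alone, both other filters and a threshold of 0.05, and by DESeq2. The quasi-likelihood test called 0 members, with an adjusted p of 0.12 for Tgfbr2. With each sample left out, 0 to 1 members were called. The number of genes called was 189, and it was 50 with the quasi-likelihood test, 306 with DESeq2, 112 without a filter, 116 at a threshold of 0.05 and 72 to 323 with a sample left out. Of the other pathway genes 14 were called, 9 by the quasi-likelihood test and 8 to 15 with a sample left out. Of 120 log2 fold changes of members under the alternatives, 110 kept direction and side of the threshold, 5 of Tgfbr2 no longer passed, and 5 changed sign. The sign changes all came with a sample left out, over ranges of -0.56 to 0.75 for Ltbp1, -0.0043 to 0.40 for Ltbp2 and -0.66 to 0.13 for Ltbp3. The difference in the ratio of Tgfb3 to Tgfb1 ranged from -0.40 to 0.049, and the other ratios kept their direction under each alternative. The cause of these shifts was not tested. Tgfb1 had 52 to 87 counts per sample and a tagwise coefficient of variation of 0.95. Its interval of 0.16-fold to 3.42-fold limits what can be said of it. No paired analysis was possible because the labels number the samples in 1 series over both groups and tie none of them together. Pools of both groups may share animals, which the tests used here do not take into account. Over 12192 genes, deviations from the group means of samples with the same assigned number correlated at -0.022, 0.011 and -0.0057, and those of the other 6 combinations between -0.017 and 0.025. The scatter of genes with low counts can hide a link between pools, so that these correlations do not tell whether pools share animals.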
